A study of Mus musculus with 8 samples.

Results

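The genes described here are 10 genes commonly used to mark the epithelium of the choroid plexus, namely Ttr, Enpp2, Kl, Aqp1, Slc4a5, Kcnj13, Kcne2, Clic6, Cldn2 and Otx2. They were taken by name and matched by Ensembl identifier to the 55890 genes of the count table, where all 10 were found. RNA-seq had been performed on poly(A) RNA from the hypothalamus of 16-week-old gonad-intact female mice, and each library held the RNA of 2 animals of the same genotype pooled at random. In POMC-C451Af/f mice, Cre driven by the Pomc promoter recombines a homozygous floxed Esr1 allele, so that cells in which the promoter has been active carry an estrogen receptor-α that cannot signal from the membrane. The controls are wild-type in the sample labels and homozygous C451Af/f littermates without Cre in the methods of the study, so the floxed alleles may be shared by both groups. There were 4 pools from 8 animals in each genotype, and the total estimated count per pool ranged from 36095253 to 48942116. Bulk hypothalamus was sequenced, so that fewer cells of a type and less RNA per cell cannot be told apart in any value below.

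The choroid plexus is a fold of vascularised tissue covered by a secretory epithelium that produces cerebrospinal fluid, and one part of it hangs from the roof of the ventricle whose lower walls and floor are formed by the hypothalamus. Whether some of it comes along in a dissection is commonly judged from Ttr, which encodes the thyroxine carrier transthyretin and is among the most abundant transcripts of this epithelium. If choroid plexus RNA varied from pool to pool, genes with RNA mainly from this epithelium would be high and low with Ttr. This is the comparison made here, and it cannot serve for genes with much RNA from other cells. Levels are given as CPM, counts scaled to 1000000 per pool and between pools with TMM factors. The 10 genes are ranked in CPM per kb of exon. A sum over a list is in CPM, where long transcripts weigh more, and the gene named with a list is the one with the most counts, whatever its length.

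Esr1, the gene that carries the mutation, was at 11.6, 12.2, 10 and 10.8 CPM in POMC-C451Af/f replicates 1 to 4, and at 12.3, 12.8, 11.6 and 16.0 CPM in control replicates 1 to 4. The groups overlapped, with a log2 fold change of -0.23 ± 0.10 (SE, POMC-C451Af/f over control; unadjusted p = 0.0462, adjusted p = 0.88, edgeR; exact permutation p = 0.0857). The study reported total Esr1 mRNA in the hypothalamus as unaffected. Gene counts do not show a change of single codons and so do not check the genotype labels.

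The 10 genes were very unequal in level, and Enpp2 made up most of their RNA. Enpp2, which encodes the secreted lysophospholipase autotaxin and is also strongly expressed by oligodendrocytes, came first with 31.6 ± 3.61 CPM per kb (mean ± SD, n = 8 pools), above 92.2% of the tested genes. Clic6, a gene of the intracellular chloride channel family, was next with 4.70 ± 0.366 CPM per kb, followed by Ttr with 2.53 ± 1.81 CPM per kb. The spread of Ttr was wide enough to cover the next genes, Kl at 1.06 ± 0.202 and Otx2 at 0.846 ± 0.309 CPM per kb, and these did not differ from each other or from Kcnj13 at 0.646 ± 0.589 CPM per kb beyond their spread. Cldn2 and Aqp1 were alike at 0.181 ± 0.0420 and 0.178 ± 0.0804 CPM per kb. Kcne2, at 0.0739 ± 0.0409 CPM per kb, and Slc4a5, at 0.0283 ± 0.0192 CPM per kb, came last. Summed over the 10 genes, the level ranged from 198 to 260.3 CPM between pools, with most of it from Enpp2. Taken per kb of exon, Enpp2 made up 70.5% to 79.6% of the sum in each pool and Ttr 1.46% to 12.2%.

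**Figure D1:**
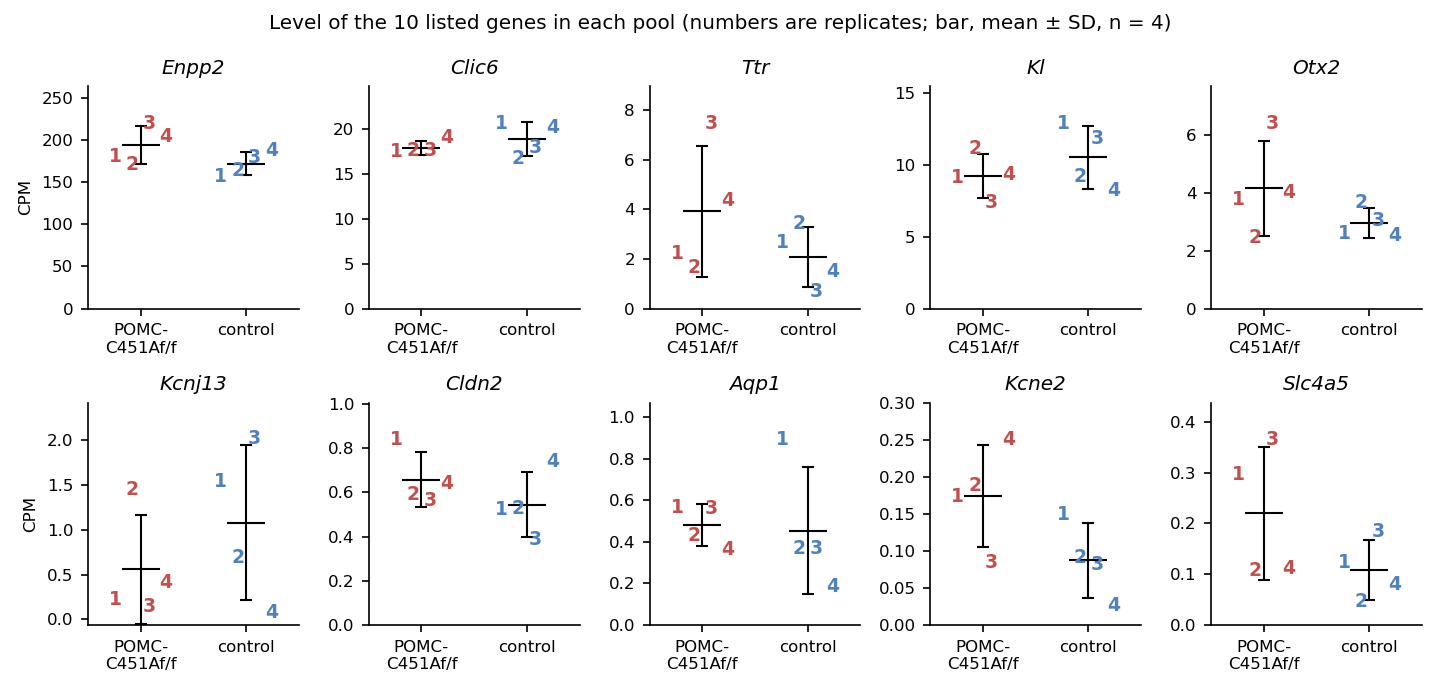
Level in CPM (vertical axes, each starting at or below 0 and with its own scale) of the 10 listed genes in the 4 POMC-C451Af/f pools (red) and the 4 control pools (blue). Each numeral is the replicate number of a pool, and black bars give the mean ± SD of the group. The groups overlap for all 10 genes, and the highest Ttr value, 7.47 CPM, belongs to POMC-C451Af/f replicate 3.

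Ttr was at 2.22, 1.64, 7.47 and 4.37 CPM in POMC-C451Af/f replicates 1 to 4, and at 2.65, 3.44, 0.695 and 1.48 CPM in control replicates 1 to 4. These levels came from 34 to 266 estimated counts per pool. POMC-C451Af/f replicates 3 and 4 were the highest and control replicate 3 the lowest, a 10.7-fold range. Per kb of exon, Ttr stood above only 41.7% of the tested genes. Its biological coefficient of variation, the spread between pools of a genotype left after counting error, was 0.50, above that of 99.2% of the tested genes.

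Of the 10 listed genes 4, namely Slc4a5, Kcne2, Aqp1 and Kcnj13, had fewer than 10 counts in at least 1 pool. Slc4a5, a sodium bicarbonate cotransporter of the apical membrane, had 12, 4, 13 and 4 estimated counts in the POMC-C451Af/f pools, from replicate 1 to 4, and 5, 2, 9 and 3 in the control pools. Kcne2, a potassium channel subunit, had 7, 7, 3 and 9 estimated counts in the POMC-C451Af/f pools and 6, 4, 4 and 1 in the control pools. Neither passed the filter on low counts, so 8 of the 10 genes were tested. Aqp1, the water channel of the apical membrane, ranged from 0.185 to 0.893 CPM on 7 to 36 counts, with control replicate 1 highest and control replicate 4 lowest. Cldn2, a claudin that forms cation- and water-permeable tight junctions, ranged from 0.389 to 0.839 CPM on 19 to 34 counts. The biological coefficient of variation of Aqp1 was 0.34, above that of 97.8% of the tested genes. For Slc4a5 and Kcne2, counting error alone is large at these counts.

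Further genes of the epithelium, 37 in 3 lists, were mostly detected, 34 of them with at least 10 counts in every pool. Among 13 genes of ion and solute transport, the lactate transporter Slc16a8 had at most 3 counts in every pool, and Steap1 did not pass the filter either. Most counts of that list came from Atp1b1, a sodium pump subunit also expressed by neurons, at 1278 to 1506 CPM. Among 14 receptors, carriers and secreted proteins, the serotonin receptor Htr2c, which hypothalamic neurons also express, had the most counts, at 78.6 to 101 CPM. As examples of less abundant genes there, the folate receptor Folr1 ranged from 0.344 to 0.899 CPM and the coagulation factor F5 from 0.609 to 1.21 CPM. Of 10 genes of structure and transcription factors, Cab39l had the most counts, at 34.1 to 38.3 CPM. Between the lowest and the highest pool, the 35 tested genes of these lists varied by 1.11-fold for Slc31a1, a copper transporter, to 14.7-fold for Slc13a4, a sulfate transporter, with a median of 1.49-fold. Slc13a4 was the 1 gene with a wider range than Ttr.

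A variation of Ttr together with other listed genes was not detected. Of its 9 relations with the other listed genes over the 8 pools, 6 were positive and 3 negative, and 0 passed a Benjamini-Hochberg adjusted exact permutation p of 0.05. The closest was Otx2, a homeobox transcription factor needed to form the choroid plexus, with Pearson's r = 0.79 (exact permutation p = 0.0215, adjusted over 9 relations 0.193) and Spearman's rho = 0.74 (exact permutation p = 0.0458, adjusted 0.412). Without the 2 pools farthest from the median of Ttr, r was 0.77. As single pools were left out, it ranged from 0.55 without POMC-C451Af/f replicate 3 to 0.91 without control replicate 3. Enpp2 had r = 0.50 (exact permutation p = 0.211) and rho = 0.31 (exact permutation p = 0.462), and r was 0.17 without the 2 farthest pools. Kl and Kcnj13 were on the negative side, with r = -0.56 (exact permutation p = 0.145) and r = -0.52 (exact permutation p = 0.193), but rho was -0.33 and -0.31 (exact permutation p = 0.428 and 0.462). Their r was 0.03 and 0.09 without the 2 farthest pools, so these negative values rested on those pools. Aqp1, Slc4a5, Kcne2, Clic6 and Cldn2 had r between -0.14 and 0.31 and rho between -0.14 and 0.38, with exact permutation p of at least 0.450 for r and 0.360 for rho.

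**Figure D2:**
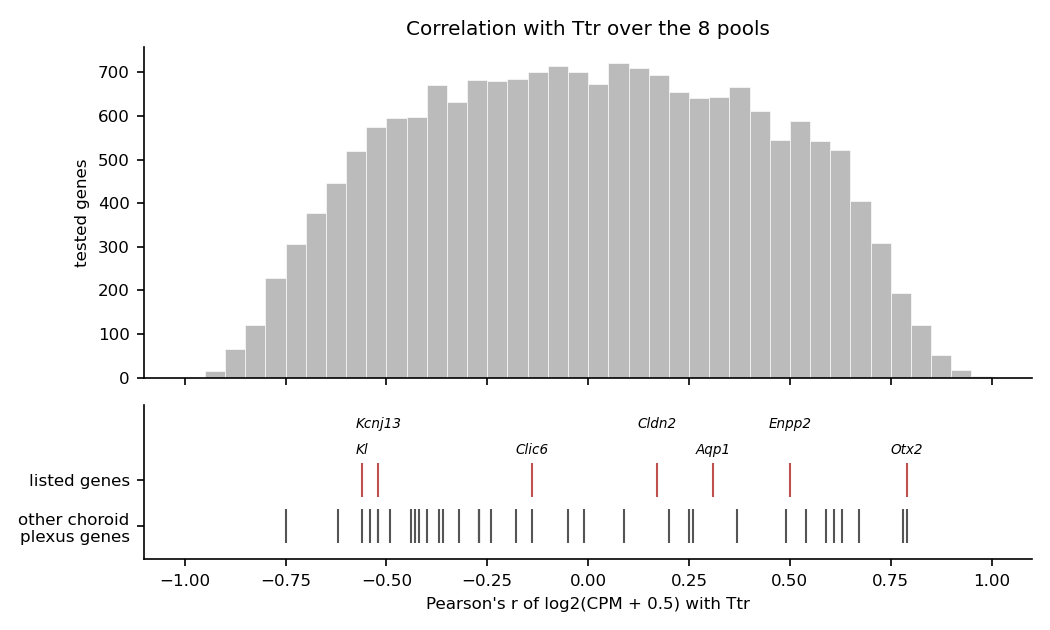
Number of tested genes (upper vertical axis) by Pearson's r of log2(CPM + 0.5) with Ttr over the 8 pools (horizontal axis, without unit), above marks for the 7 other tested listed genes (red) and the 35 tested genes of the other choroid plexus lists (grey). The listed genes lie between -0.56 and 0.79 and the other choroid plexus genes between -0.75 and 0.79, both on each side of 0.

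The other choroid plexus genes also lay on both sides of 0. Of the 35 that were tested, 13 had a positive and 22 a negative r with Ttr, with a median of -0.24. Some were far above Ttr in level and are expressed by other cells, as Atp1b1 and Htr2c by neurons. For such genes, r with Ttr cannot show whether choroid plexus RNA varied, so these counts do not decide it. Among the 35, those nearest to Ttr were Mfrp, a frizzled-related membrane protein with 10 to 27 counts per pool, at r = 0.79 and F5 at r = 0.78. The farthest was Ace, which encodes angiotensin-converting enzyme, with r = -0.75. Genes of other cell types came about as close to Ttr, such as Hba-a1 of the red blood cell list with r = 0.77. The number of these 35 genes with r above 0.8 differed between the listed genes, with 4 for Otx2, 3 each for Kl and Kcnj13, 2 for Enpp2, 1 each for Aqp1, Slc4a5 and Cldn2 and 0 for Ttr, Clic6 and Kcne2. Among all other tested genes, such an r was found for 4.31% with Otx2, 3.48% with Kl, 2.58% with Kcnj13, 4.62% with Enpp2, 0.923% with Aqp1, 0.730% with Slc4a5, 0.574% with Cldn2 and 1.04% with Ttr. The nearest to Otx2 among the genes of all lists was Mfrp, with r = 0.97, a value picked as the highest and therefore not tested. With Ttr, 20 of all other tested genes had r above 0.9 and 16 below -0.9. The 10 genes outside the lists with the highest r with Ttr, from 0.92 to 0.98 over the 8 pools, were 2310040G24Rik, Kcnd3os, Fabp5, a gene without a symbol, Cacnb3, Gm27032, Scrn2, Piezo1, Ankrd13b and Ndp. They were picked for this value, which therefore has no test. Fabp5, a fatty acid binding protein, ranged only from 64.7 to 71.5 CPM and the calcium channel subunit gene Cacnb3 from 100.3 to 118 CPM, while Ttr ranged 10.7-fold.

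Kl and Kcnj13 were the pair of listed genes that moved most alike. Kl encodes klotho, a coreceptor of FGF23, and was at 9.09, 11.1, 7.36 and 9.29 CPM in POMC-C451Af/f replicates 1 to 4 and at 12.9, 9.15, 11.8 and 8.18 CPM in control replicates 1 to 4. Kcnj13 encodes the inwardly rectifying potassium channel Kir7.1 and was at 0.222, 1.45, 0.140 and 0.417 CPM in the POMC-C451Af/f pools and at 1.54, 0.688, 2.02 and 0.0795 CPM in the control pools. For both genes POMC-C451Af/f replicate 2 and control replicates 1 and 3 were the highest. Kcnj13 had 3 to 99 counts per pool, a 25.5-fold range in CPM, and a biological coefficient of variation of 0.78, above that of 99.7% of the tested genes. The relation had r = 0.92 (exact permutation p = 0.00149) and rho = 0.93 (exact permutation p = 0.00223), and r was 0.88 without the 2 pools farthest from the median of Kl. Adjusted over all 45 pairs of the listed genes, these p were 0.067 and 0.1, so that 0 of 45 pairs passed 0.05. Over the 45 pairs, r ranged from -0.75, for Kcnj13 and Cldn2, to 0.92, with a median of 0.10, and 26 were positive and 19 negative.

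Because this was the closest pair, although it did not pass, the 250 bases before their starts are shown, as RefSeq gives them on GRCm38.p6, 5′ to 3′ on the strand of the gene. Capitals mark matches on either strand to the letters TATAAA of the box named for them. They also mark the letters CCAAT, the binding element of nuclear factor Y, and the GC box with the letters CCGCCC, bound by factors of the SP family.
Kcnj13, chr1:87394730-87394979, minus strand: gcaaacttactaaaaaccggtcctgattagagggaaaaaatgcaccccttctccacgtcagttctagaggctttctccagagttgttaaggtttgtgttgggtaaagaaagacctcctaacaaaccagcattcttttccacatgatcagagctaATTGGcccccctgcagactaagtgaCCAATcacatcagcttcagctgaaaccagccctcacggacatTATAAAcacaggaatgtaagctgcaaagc
Kl, chr5:150952357-150952606, plus strand: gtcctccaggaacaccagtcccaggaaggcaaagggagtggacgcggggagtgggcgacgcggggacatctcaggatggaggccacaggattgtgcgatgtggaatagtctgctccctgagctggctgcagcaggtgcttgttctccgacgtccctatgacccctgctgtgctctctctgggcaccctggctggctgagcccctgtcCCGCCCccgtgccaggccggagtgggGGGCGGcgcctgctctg
The windows share none of these elements. The one before Kcnj13 holds 45.2% G and C, with the TATAAA element from 29 to 24 bases before the start and 2 nuclear factor Y elements. That before Kl holds 66.8% G and C, with 2 GC boxes and neither of the other elements. TATAAA is found in 12.4%, the nuclear factor Y element in 33.8% and the GC box in 32.7% of 32851 RefSeq promoter windows of this length. The OTX2 recognition sequence TAATCC, searched likewise, is in 6.25% of them and in neither of these windows. Of the 10 genes 7 matched a RefSeq promoter, and Ttr, Enpp2 and Clic6 did not. Among the 11 windows of these 7 genes, TAATCC was found only in 1 of the 4 of Otx2.

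The genes of leptomeningeal fibroblasts, a list of 7, had the same 3 high pools as Kl and Kcnj13. Their summed level was 65.7, 108, 51.8 and 53.6 CPM in the POMC-C451Af/f pools and 109, 63.7, 107 and 49.0 CPM in the control pools, by replicate. The pools thus fell into separate clusters of 3 and 5, too few in each to test a relation, and no correlation with this list is given. The organic anion transporter Slc22a6, which marks the arachnoid and pia, was at 1.68, 8.92, 0.870 and 1.2 CPM in the POMC-C451Af/f pools and at 8.51, 2.11, 10.1 and 0.291 CPM in the control pools. Slc13a4, listed with the choroid plexus genes but also known from the meninges, was at 3.90, 14.5, 2.36 and 2.17 CPM and at 15.2, 5.48, 19.5 and 1.32 CPM in the same order. Igf2, which both tissues express, ranged from 29.6 to 119 CPM with the same 3 pools above the others. Slc22a6, Slc13a4 and Igf2 were singled out after their values were seen. All 7 genes of the leptomeningeal list were detected, with the most counts in the collagen gene Col1a2 at 18.6 to 40.0 CPM. Hypothalamic neuron genes also summed highest in these 3 pools. They were at 1240.2 CPM in POMC-C451Af/f replicate 2 and at 1498 and 1263 CPM in control replicates 1 and 3, against at most 1067 CPM elsewhere. With hypothalamic neuron genes Kl had r = 0.88 (exact permutation p = 0.00516, adjusted over 100 relations 0.129) and rho = 0.76 (exact permutation p = 0.0368, adjusted 0.408), with r = 0.64 without the 2 farthest pools. With oligodendrocyte genes it had r = -0.80 (exact permutation p = 0.0178, adjusted 0.223) and rho = -0.83 (exact permutation p = 0.0154, adjusted 0.384), with r = -0.37 without the 2 farthest pools, and with thalamic genes r = -0.78 (exact permutation p = 0.0244) and rho = -0.57 (exact permutation p = 0.151). None of the relations of Kl passed. Of the genes of all lists, those nearest to Kl were Avp and Oxt of hypothalamic neurons, each with r = 0.95. Col1a2 of the leptomeningeal list followed with r = 0.93, and these values were picked as the highest and not tested. How much of the Kl and Kcnj13 RNA came from leptomeninges or from hypothalamic neurons was not tested.

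Enpp2 moved with the genes of oligodendrocytes. Its level was 180.0, 171, 219.7 and 204 CPM in the POMC-C451Af/f pools, by replicate, and 157, 164, 179 and 187 CPM in the control pools, with POMC-C451Af/f replicates 3 and 4 the highest and the groups overlapping. The 8 oligodendrocyte genes summed to 5749.8, 5646, 6985 and 6399 CPM in the POMC-C451Af/f pools and to 4861, 5738, 5802 and 5772 CPM in the control pools, with the most counts in Mbp at 2189 to 3184 CPM. Enpp2 and the mean log2 level of this list had r = 0.94 (exact permutation p = 0.000744) and rho = 0.93 (exact permutation p = 0.00223), with r = 0.82 without the 2 pools farthest from the median of the list. Relations of the 10 genes with 10 lists of other cell types were computed after the values were seen, 100 in all, and over these the adjusted p was 0.0372 for r and 0.112 for rho. A second relation passed for r, that of Enpp2 with the 6 genes of midbrain dopaminergic neurons (r = 0.95, exact permutation p = 0.000471, adjusted 0.0372; rho = 0.95, exact permutation p = 0.00114, adjusted 0.112; r = 0.91 without the 2 farthest pools). These relations share the same pools, and those lists summed highest in the same pools, POMC-C451Af/f replicates 3 and 4.

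Otx2 was at 3.78, 2.47, 6.43 and 4.01 CPM in POMC-C451Af/f replicates 1 to 4 and at 2.61, 3.69, 3.05 and 2.54 CPM in control replicates 1 to 4. Its highest value was in POMC-C451Af/f replicate 3, as for Ttr, and the groups overlapped. Otx2 is also expressed by neurons of the midbrain and thalamus. The 6 thalamic genes, with the most counts in Prkcd, summed to 220.3, 131, 392 and 263 CPM in the POMC-C451Af/f pools and to 87.1, 392, 162 and 156 CPM in the control pools, and the 6 dopaminergic genes, with the most counts in Th, to 161, 121, 263 and 195 CPM and to 106, 87.2, 119.9 and 139 CPM. With the dopaminergic list Otx2 had r = 0.71 (exact permutation p = 0.0441) and rho = 0.64 (exact permutation p = 0.0962), and r was 0.80 without the 2 farthest pools. With the thalamic list Otx2 had r = 0.81 (exact permutation p = 0.0141) and rho = 0.79 (exact permutation p = 0.0279), and r was 0.97 without the 2 farthest pools, but the adjusted p over the 100 relations were 0.201 and 0.408. Other lists were as close, with r = 0.82 for oligodendrocyte genes (exact permutation p = 0.0136; rho = 0.71, exact permutation p = 0.0576), -0.83 for hypothalamic neuron genes (exact permutation p = 0.01; rho = -0.76, exact permutation p = 0.0368) and 0.79 for retinal pigment epithelium genes (exact permutation p = 0.0405; rho = 0.38, exact permutation p = 0.360). Without the 2 farthest pools these r were 0.57, -0.66 and 0.83, and none of the relations of Otx2 passed after adjustment. For Ttr and the 10 lists, r ranged from -0.67 for hypothalamic neuron genes to 0.63 for oligodendrocyte genes, and none passed (lowest adjusted exact permutation p = 0.369 for r and 0.630 for rho).

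Clic6 was the steadiest of the listed genes, at 16.7 to 20.7 CPM and with a biological coefficient of variation of 0.073, near the middle of all tested genes. Its level followed neither Ttr (r = -0.14, exact permutation p = 0.734; rho = -0.14, exact permutation p = 0.752) nor, after adjustment, any of the 10 lists of other cell types. Genes of the cells that line this ventricle were present in every pool. The 7 ependymal genes (most counts in the cilium regulator Foxj1) summed to 58.7 to 78.8 CPM, and the 7 tanycyte genes (the collagen gene Col23a1) to 64.3 to 98.5 CPM. Red blood cell genes (most counts in Hbb-bs) summed to 139 to 545 CPM, and endothelial genes (Flt1) to 173 to 195 CPM. Hypothalamic neuron genes (most counts in Pmch) summed to 733 to 1498 CPM, and anterior pituitary genes (Prl) to 18.3 to 1453 CPM with control replicate 1 far above the others. In the retinal pigment epithelium, which shares Otx2 and Kcnj13 with the choroid plexus, Rgr was at 0 in every pool, which allows at most 0.0842 CPM in the shallowest pool (3 counts, counting error only). The 7 genes of that list, with the most counts in Lrat, summed to 2.53 to 4.16 CPM.

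**Figure D3:**
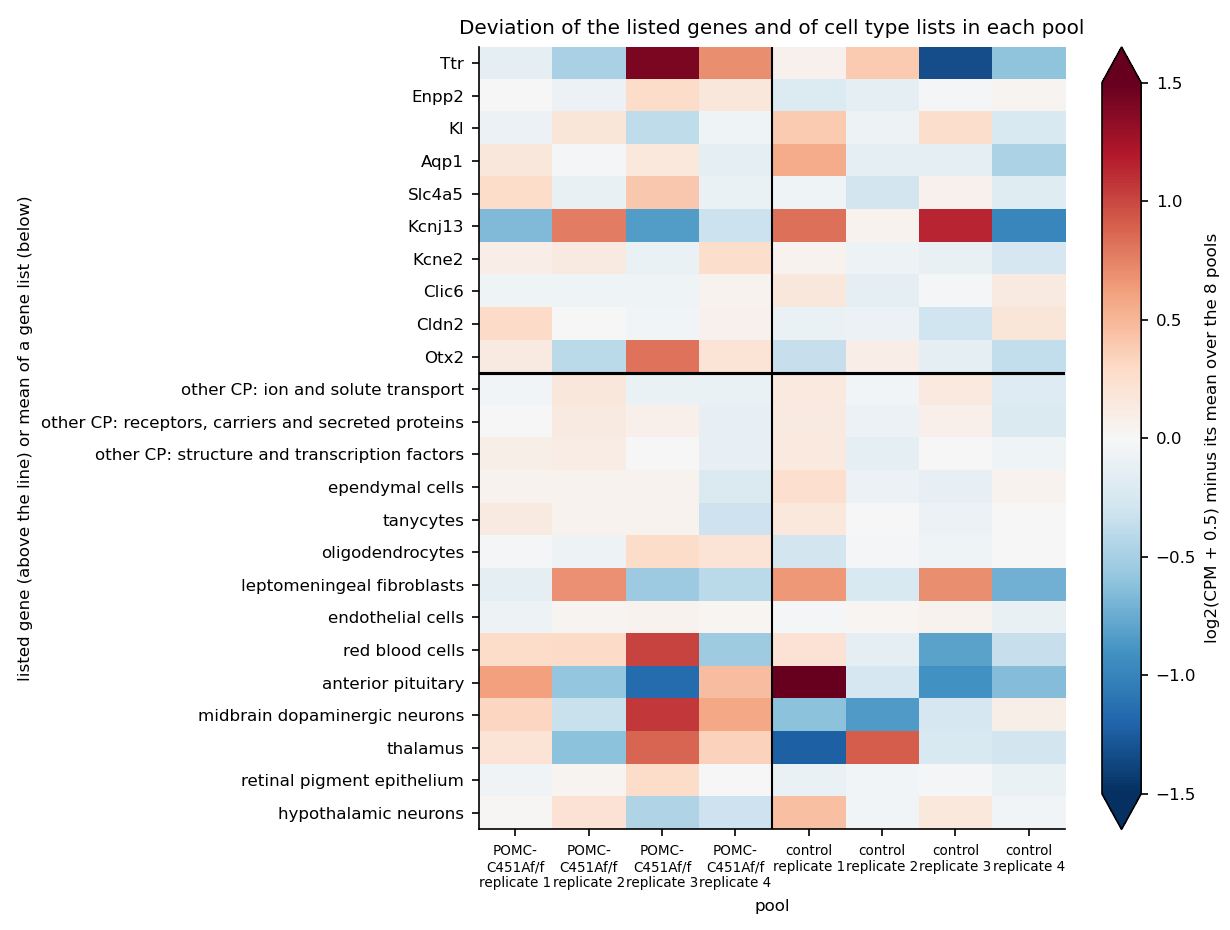
Deviation of each listed gene (above the line) and of the mean of each gene list (below it; CP, choroid plexus) from its mean over the 8 pools, in log2 units by colour, with pools as columns. Colours are capped at 1.5, which anterior pituitary genes pass in control replicate 1 (2.47). Kl, Kcnj13 and the leptomeningeal fibroblast genes have their highest values in POMC-C451Af/f replicate 2 and control replicates 1 and 3, and Ttr is at 1.41 in POMC-C451Af/f replicate 3 and at -1.33 in control replicate 3.

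Variation of the set as a whole, as its name would have it, was not detected in these pools, with 4 of the genes below 10 counts in at least 1 pool. Most of the summed level was Enpp2, which oligodendrocytes also express, and the listed genes were not all highest in the same pool. The highest pool was POMC-C451Af/f replicate 3 for 4 of them, Ttr, Enpp2, Slc4a5 and Otx2, and control replicate 1 for 3, Kl, Aqp1 and Clic6. For Kcnj13, Kcne2 and Cldn2 it was another pool each. They are called the 10 listed genes from here on.

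**Figure D4:**
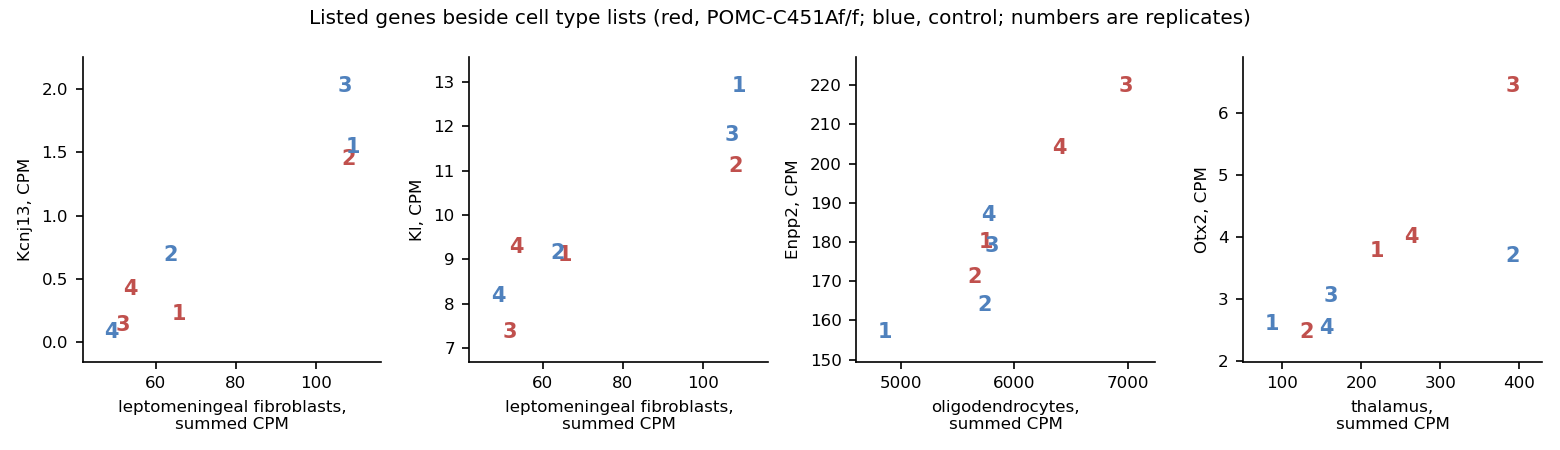
Level of 4 listed genes in CPM (vertical axes, not starting at 0) against the summed CPM of a list of cell type genes (horizontal axes), with a numeral for each pool giving its replicate (red, POMC-C451Af/f; blue, control). Kcnj13 and Kl stand beside leptomeningeal fibroblast genes, where 3 pools lie at 107 to 109 CPM and 5 pools at 49.0 to 65.7 CPM, Enpp2 beside oligodendrocyte genes and Otx2 beside thalamic genes.

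Between genotypes, 0 of the 8 tested listed genes differed. By edgeR's quasi-likelihood test with a false discovery rate of at most 0.05 and an absolute log2 fold change above 0.5, 4 of 18637 tested genes were called (0.0215%), and at an unadjusted p below 0.05 there were 950 (5.10%). None of the 8 genes reached an unadjusted p below 0.05 in edgeR, and in DESeq2 2 of them, Enpp2 and Otx2, did, with adjusted p of 1. The ranges of the groups overlapped for all 10 genes, against 519 tested genes (2.78%) without overlap. The median log2 fold change of the 8 genes was 0.13, beside 0.00085 over all tested genes, with 5 above and 3 below 0. With Ttr as a covariate, where Ttr itself is left out, this median was -0.08.

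Ttr averaged 3.92 ± 2.64 CPM in POMC-C451Af/f and 2.07 ± 1.22 CPM in control pools (SD, n = 4), a log2 fold change of 0.92 ± 0.52 (SE; adjusted p = 0.88, edgeR; exact permutation p = 0.257). As single pools were left out, it ranged from 0.41 without POMC-C451Af/f replicate 3 to 1.29 without control replicate 2. Otx2 had a log2 fold change of 0.48 ± 0.25 (adjusted p = 0.88, edgeR; exact permutation p = 0.257), and from 0.20 without POMC-C451Af/f replicate 3 to 0.67 without POMC-C451Af/f replicate 2. For Enpp2 it was 0.17 ± 0.08 (adjusted p = 0.88, edgeR; exact permutation p = 0.143), and from 0.11 to 0.23 with single pools left out. With the mean of the oligodendrocyte genes as a covariate, a fit added after seeing the data, the log2 fold changes of Ttr, Otx2 and Enpp2 were 0.11 ± 0.60, 0.01 ± 0.22 and 0.00 ± 0.05 (SE). With the leptomeningeal genes in its place they were 0.63 ± 0.48, 0.36 ± 0.23 and 0.14 ± 0.07, and with Ttr as a covariate those of Otx2 and Enpp2 were 0.14 ± 0.22 and 0.13 ± 0.09. The 8 oligodendrocyte genes all leaned the same way between genotypes, and Enpp2 had r = 0.94 with their list. The fit with these genes as a covariate therefore cannot tell them and genotype apart.

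Kcnj13 averaged 0.558 ± 0.607 CPM in POMC-C451Af/f and 1.08 ± 0.867 CPM in control pools (SD, n = 4), a log2 fold change of -0.98 ± 0.78 (SE; adjusted p = 0.89, edgeR; exact permutation p = 0.371). With the mean of the leptomeningeal genes as a covariate, also added after seeing the data, it was -0.47, with Ttr as a covariate -0.49 and with the oligodendrocyte genes -0.11, and it ranged from -2.07 to -0.47 as single pools were left out. Kl had -0.19 ± 0.16 and Clic6 -0.08 ± 0.07 (adjusted p = 0.89 for both, edgeR; exact permutation p = 0.371 and 0.343). Aqp1 had 0.09 ± 0.41 and Cldn2 0.29 ± 0.24 (adjusted p = 0.98 and 0.89, edgeR; exact permutation p = 0.714 and 0.286). As single pools were left out, Kl ranged from -0.29 to -0.08, Clic6 from -0.13 to -0.03, Cldn2 from 0.15 to 0.47 and Aqp1 from -0.15 to 0.62. For Kcne2 and Slc4a5, below the filter on low counts, the exact permutation p was 0.0857 and 0.229. In a fit without the filter, their log2 fold changes were 0.96 ± 0.57 and 0.98 ± 0.56 (adjusted p = 0.79 for both, edgeR). With 4 pools against 4 the smallest p this exact two-sided permutation test allows is 0.0286.

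**Figure D5:**
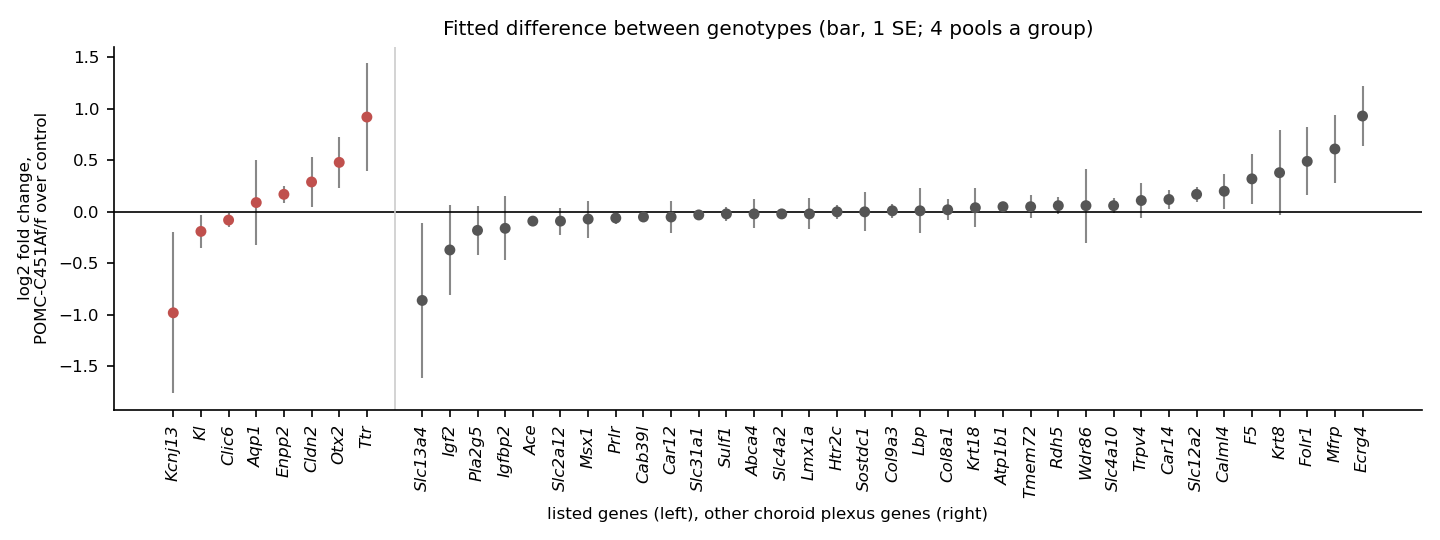
Log2 fold change of POMC-C451Af/f over control (vertical axis; bars, 1 SE; 4 pools a group) for the 8 tested listed genes (red) and 35 tested genes of the other choroid plexus lists (grey), each sorted by value. The listed genes run from -0.98 for Kcnj13 to 0.92 for Ttr, and none passed the test.

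For the other choroid plexus genes no difference was called either. Of 35 tested, 19 had a log2 fold change above and 16 below 0, with a median of 0.01, and 0 were called, with 2 at an unadjusted p below 0.05, beside 0.0215% and 5.10% of all tested genes. These were Ecrg4, which encodes the secreted peptide augurin, at 0.93 ± 0.29, and Slc12a2, the sodium-potassium-chloride cotransporter NKCC1, at 0.17 ± 0.07 (adjusted p = 0.88 for both, edgeR). Ecrg4 was at 1.53, 1.1, 2.27 and 0.918 CPM in POMC-C451Af/f replicates 1 to 4 and at 0.670, 0.940, 0.839 and 0.583 CPM in control replicates 1 to 4. POMC-C451Af/f replicate 4 lay below the highest control pool, so the groups overlapped.

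In the lists of other cell types, 0 genes were called in the edgeR or DESeq2 fits made here, and the lists did not lean the same way. All 6 dopaminergic genes had a log2 fold change above 0 (median 0.89), and 5 of them, Slc6a3 at 1.86 ± 0.60, Th at 0.55 ± 0.13, Pitx3 at 1.23 ± 0.47, En1 at 1.99 ± 0.64 and Slc18a2 at 0.32 ± 0.12, had an unadjusted p below 0.05 with adjusted p of 0.88 (edgeR). The groups did not overlap for Th, whose adjusted p in the DESeq2 fit made here was 0.443. The study lists Th among its differentially expressed genes. All 8 oligodendrocyte genes were above 0 (median 0.19), with Mog at 0.23 ± 0.08 and Mag at 0.22 ± 0.08 among those having an unadjusted p below 0.05. All 5 red blood cell genes were above 0 (median 0.58), Hba-a1 at 0.81 ± 0.34 and Hbb-bs at 0.75 ± 0.31 with an unadjusted p below 0.05. Without POMC-C451Af/f replicate 3 these were 0.34 and 0.45. All 8 hypothalamic neuron genes were below 0 (median -0.25), Pomc at -0.59 ± 0.24 with an unadjusted p below 0.05, and at -0.28 without control replicate 1. Among 7 tanycyte genes 1, Gpr50 at -0.26 ± 0.11, had such a p. In the leptomeningeal list 0 of 7 genes had an unadjusted p below 0.05, with a median log2 fold change of -0.16. The medians were 0.23 for thalamic, 0.06 for endothelial, -0.03 for ependymal, 0.40 for retinal pigment epithelium and -0.63 for anterior pituitary genes, again with 0 genes at an unadjusted p below 0.05. Without control replicate 1, the log2 fold changes of the tested anterior pituitary genes were all positive, from 0.26 to 1.36. That of the thalamic gene Prkcd, 0.27, ranged from -0.20 without POMC-C451Af/f replicate 3 to 1.31 without control replicate 2. The part of these lists in the values of Ttr, Otx2 and Kcnj13 was not tested. The covariate fits cannot give it where the genes used as a covariate leaned with genotype themselves, as the oligodendrocyte genes did.

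Some of the genes overlap others in GENCODE M21. Kcnj13 lies opposite Gigyf2, which ranged from 73.6 to 84.1 CPM, Otx2 opposite Otx2os1, at 0.0265 to 0.281 CPM, and Enpp2 opposite Gm26684, at 0.494 to 0.890 CPM. On the same strand, Clic6 overlaps 2410124H12Rik and Otx2 overlaps Gm49154, both at 0.106 CPM or less. Of these 5 relations, tested after the values were seen, that of Kcnj13 and Gigyf2 was negative, with r = -0.94 (exact permutation p = 0.00196, adjusted 0.0098) and rho = -0.88 (exact permutation p = 0.00724, adjusted 0.0362), and r was -0.98 without the 2 farthest pools. Among all 18636 other tested genes, 39 had r below -0.9 with Kcnj13. Otx2 and Gm49154, which had at most 3 counts, had r = 0.87 (exact permutation p = 0.0179, adjusted 0.0446) and rho = 0.76 (exact permutation p = 0.0357, adjusted 0.0893), with r = 0.54 without the 2 farthest pools. For Otx2 and Otx2os1, with at most 10 counts, r was 0.71 (exact permutation p = 0.0504) and rho 0.57 (exact permutation p = 0.151), and r was -0.02 without the 2 farthest pools. The libraries keep strand, but its use in the counting is not given in the sources used here, so reads of overlapping genes may not be fully told apart.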

How the data were processed

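RNA-seq of 8 pools of hypothalamus, 4 of each genotype, was analysed. The authors deposited estimated counts per gene, made with Salmon 1.10 against the GENCODE vM32 transcriptome and summed to genes with tximport, neither filtered nor scaled. The deposited values were rounded to whole numbers. A second table, holding the authors' own DESeq2 1.40 comparison of the genotypes, was not used. Genes were named from Ensembl identifiers (51424 of 55890 matched; Ecrg4 under an older symbol). Genes passing filterByExpr (minimum count 10, minimum total 15; 18637 genes) were fitted with genotype alone in edgeR 4.0.16 (TMM, glmQLFit, glmQLFTest; R 4.3.3), with Benjamini-Hochberg adjustment over all of them. Log2 levels used a pseudocount of 0.5 CPM. Exact two-sided permutation tests ran over 70 splits or 40320 orders of the pools (SciPy 1.17.1, NumPy 2.4.6). Pools were taken as separate clusters where the widest gap exceeded 0.5 of the range with 2 or more pools on each side. Exon lengths came from GENCODE M21, another release than the authors', for 18241 tested genes. Alternatives included DESeq2 1.42.0, other scalings, filters, covariates and the omission of each pool. The analysis was tested on simulated data. Counting limits precision for genes below about 10 counts, and a count of 0 allows 0.0614 to 0.0842 CPM in these pools. The closest 2 pools differed by a chi-square of 4.58 per degree of freedom, so none was a duplicate.

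The text names the 10 listed genes, Esr1, the 10 genes outside the lists with the highest r with Ttr, most list genes with an unadjusted p below 0.05, the gene with the most counts in each list and list genes with at most 3 counts in every pool, with others named as chosen later or as examples. The members and lists were chosen with earlier results of these data known.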

Additional observations from a re-analysis of the deposited data

Results flagged for a closer look

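In each genotype, the highest or lowest of the 4 pools was compared with the rest for 130 groups of values, and 13 stood far from the other 3. Chance gives about 1 in 20, and the values are not independent. Control replicate 1 accounted for 7 of the 13. It had 1013 CPM of the pituitary hormone gene Prl, against 10.7 to 68.8 CPM in the other control pools, and 1453 CPM summed over anterior pituitary genes, against 22.9 to 96.9 CPM. Pomc was at 98.9 CPM there, against 49.7 to 50.8 CPM. The same pool was low in myelin genes, with Mag at 161 CPM against 194 to 198 CPM, Mbp at 2189 CPM against 2594 to 2665 CPM, and all oligodendrocyte genes at 4861 CPM against 5738 to 5802 CPM. Its Flt1 level was 73.9 CPM, against 81.2 to 81.6 CPM.

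Clic6 was the single listed gene with such a pool, at 19.1 CPM in POMC-C451Af/f replicate 4 against 17.5 to 17.6 CPM in the other 3. In that pool the other choroid plexus genes of structure and transcription factors summed to 70.4 CPM, against 76.1 to 76.7 CPM, and ependymal genes to 58.7 CPM, against 69.5 to 71.4 CPM. POMC-C451Af/f replicate 3, highest in Ttr and Otx2, stood apart in Hba-a1, at 175 CPM against 57.9 to 75.5 CPM, and in the retinal pigment epithelium genes, at 4.16 CPM against 2.99 to 3.17 CPM. Control replicate 2 had 169 CPM of Prkcd, against 16.5 to 42.3 CPM.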

How the results depend on the processing

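Each of the 18 alternatives, 10 of them other than leaving out a pool, tested 6 to 10 of the listed genes. None of those tested was called, and the lowest adjusted p was 0.47 (edgeR). At an unadjusted p below 0.05 up to 4 were found, without POMC-C451Af/f replicate 2. The 4 genes called in all became 13 with DESeq2, 2 with at least 10 counts in every pool, 2 with the replicate number as a block, and 4 to 5 as single pools were left out. Same-numbered pools did not deviate together (r = 0.14, -0.18, -0.11 and 0.24 for pairs 1 to 4), which cannot exclude shared handling. The block changed no call among the listed genes. With it the SE of Enpp2 fell from 0.08 to 0.04 (adjusted p = 0.76, edgeR), and that of Ttr rose from 0.52 to 0.66. The median log2 fold change of the listed genes, 0.13, was -0.08 with Ttr as a covariate, where Ttr itself is left out, and 0.06 to 0.20 as single pools were left out. It was 0.05 with the oligodendrocyte covariate, and 0.23 both without the filter on low counts and with at least 10 counts in every pool. The summed level, 0.15 higher on the log2 scale in POMC-C451Af/f, was 0.02 higher without Enpp2. The sign of the log2 fold change of Aqp1 turned to -0.08 with Ttr as a covariate and ranged from -0.15 to 0.62 as single pools were left out, and that of Kl turned to 0.08 with the oligodendrocyte covariate. The cause was not tested.

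No relation with Ttr passed under any tested alternative. Centring on genotype means turned the sign of r for Kcne2 (-0.10), Clic6 (0.02) and Cldn2 (-0.04), and using the mean of the other 9 genes in place of Ttr, untested, gave -0.37 for Cldn2, 0.29 for Otx2, 0.05 for Enpp2, -0.05 for Kl, 0.69 for Aqp1 and 0.46 for Kcne2. As single pools were left out, r ranged from -0.30 to 0.49 for Slc4a5, -0.27 to 0.01 for Clic6, -0.43 to 0.33 for Cldn2, 0.02 to 0.55 for Kcne2, 0.06 to 0.62 for Enpp2, -0.75 to -0.28 for Kl and -0.78 to -0.25 for Kcnj13. For Otx2 it ranged from 0.55 to 0.91 and for Aqp1 from 0.18 to 0.43. Pools of 2 animals, 4 a group, and few counts limit what could be detected, most of all for Slc4a5 and Kcne2.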
